A study of Mus musculus with 14 samples.

Results

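Genes of the circadian clock were followed through the colonic epithelium of control mice and of mice that had lost Smad4 in the intestinal epithelium, on water and after 3 d of dextran sulfate sodium (DSS). The 10 genes were Arntl (also called Bmal1), Npas2, Per1, Per2, Per3, Cry1, Nr1d1, Nr1d2, Dbp and Tef. The genes were chosen by symbol, all 10 were found among the 37680 genes of the deposited count table, and all 10 were among the 15127 genes that passed the filter on low counts and were tested.

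The clock of a mammalian cell is a feedback loop of transcription factors. ARNTL pairs with CLOCK or its relative NPAS2, binds E-boxes and activates Per and Cry genes, Nr1d1 and Nr1d2, and Dbp and Tef. The PER and CRY proteins then block this activator, while NR1D1 and NR1D2 (REV-ERB alpha and beta) repress Arntl and Npas2 through ROR elements. DBP and TEF are PAR bZIP factors that bind D-boxes and carry the rhythm to output genes. In peripheral organs of mice, the transcripts of Arntl and Npas2 therefore peak at the opposite time of day from those of Dbp and Tef, with the Per genes close to the latter. The gut epithelium holds such a clock, and its phase follows light and feeding.

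E-boxes, D-boxes and ROR elements are the letters through which clock factors act, and stretches of promoter that hold them are shown for 5 of the genes. RefSeq promoters (build GRCm38.p6, from 250 bases before to 50 after an annotated start) were found for 9 of the 10 genes. Each stretch is written 5′ to 3′ on the gene's own strand, with the element in capitals. The first 3 hold the E-box CACGTG, the fourth holds 2 D-boxes and the last holds a ROR element. The Cry1 stretch also holds CACGTT on the other strand, left in lower case. No test links these letters to the values below.
Per1, chr11:69098743-69098828, + strand: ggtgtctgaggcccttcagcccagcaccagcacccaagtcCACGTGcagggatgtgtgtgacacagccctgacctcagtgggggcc
Tef, chr15:81802506-81802591, + strand: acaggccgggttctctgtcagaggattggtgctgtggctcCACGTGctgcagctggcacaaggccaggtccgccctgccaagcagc
Cry1, chr10:85185069-85185154, - strand: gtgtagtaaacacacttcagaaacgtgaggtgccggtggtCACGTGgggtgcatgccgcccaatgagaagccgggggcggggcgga
Per3, chr4:151044776-151044910, - strand: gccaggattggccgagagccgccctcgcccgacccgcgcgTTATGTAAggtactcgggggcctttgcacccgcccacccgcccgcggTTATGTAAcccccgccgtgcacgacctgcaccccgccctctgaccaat
Arntl, chr7:113207497-113207560, + strand: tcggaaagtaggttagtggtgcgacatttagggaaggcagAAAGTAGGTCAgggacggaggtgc
Both strands were searched. CACGTG stood in 7.15% of 32851 mouse promoters of this length, the D-box (TTATGTAA, TTACGTAA, TTATATAA or TTACATAA) in 1.59% and the ROR element in 0.384%. The ROR element of Arntl began 26 bases after the second of its annotated starts, and the E-box of Per1 began 166 bases before the first of its starts. The related letters CACGTT, found in 4.68% of promoters, occurred in the windows of Nr1d1 and Cry1. None of these letters lay within the windows of Npas2, Nr1d2 and Dbp.

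Bulk mRNA was sequenced from crypt epithelium of adult mice, freed from the underlying mesenchyme by EDTA chelation. The wild-type (WT) and Smad4 knockout (KO) mice were untreated (4 libraries each) or were given DSS, a polymer that injures the colon epithelium, at 2.5% in the drinking water for 3 d (3 libraries each). The study's figure legends give 4 replicates for WT on water but 3 for KO on water, without saying which. All 4 deposited KO water libraries were kept here, so the main set of samples differs from that of the study. Smad4, the shared transcriptional partner of TGF-beta and BMP signalling, was removed with tamoxifen through Villin-CreERT2, a Cre expressed in the intestinal epithelium, acting on a floxed Smad4 allele. Which of these alleles and the tamoxifen the WT libraries shared is not stated per library, and nothing says that each library came from its own mouse, so p-values measure only the spread between these samples. The study's methods give a 12-h light and dark cycle and a harvest around midday for all animals. The hour of each harvest was not given in the sources used here.

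Libraries held 12882827 to 26087231 counts assigned to genes. Values below are counts per 1000000 counts of a library (CPM) after TMM normalization, a scaling that evens out differences in library composition. Smad4 itself stood at 133 ± 18.6 CPM (SD, n = 4) in WT on water and at 42.3 ± 1.79 CPM (SD, n = 3) in KO after DSS, but the library labelled KO water replicate 1 had 158 CPM against 37.0, 46.8 and 35.1 CPM in the other KO water libraries. Its Smad4 thus went against its label, and the main fold changes that use it are also given without it. Mitochondrial genes took 30.6% and 32.8% of the counts in WT water replicates 3 and 4 and 21.4% in KO water replicate 4, against 4.05% to 8.23% elsewhere. The names of the libraries in the table begin with D, Z, ZH, MS or MP, with no meaning given. All KO DSS libraries have the prefix D, and no KO water library has it, so that for this pair the prefix and DSS cannot be told apart. The summed level of 6 epithelial markers was 7770 to 13100 CPM over all libraries. That of 6 fibroblast markers was 0.276 to 24.8 CPM, that of 4 smooth muscle markers 0.417 to 5.99 CPM and that of 3 endothelial markers 0.206 to 0.855 CPM, while 6 immune markers summed to 448 to 3200 CPM. Cd74 carried nearly all of the immune sum, with group means of 1040 to 2190 CPM, and the group means of Ptprc, Cd3e, Cd79a, Lyz2 and Itgam were 0.0878 to 7.76 CPM.

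The activators came first. Arntl (chromosome 7, 120350979 to 120457636, + strand, mm9) had 26.9, 23.5, 5.94 and 27.9 CPM in WT water replicates 1 to 4. In KO water it had 26.1, 23.4, 55.3 and 38.8 CPM. After DSS it had 26.7, 19.4 and 15.4 CPM in WT, and 13.7, 9.90 and 13.2 CPM in KO. The 3 KO DSS libraries thus lay below every KO water and every WT DSS library, while WT water replicate 3 was lower still.

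Npas2, the relative of Clock that can take its place (chromosome 1, 39250576 to 39420079, + strand), had 23.7, 22.4, 15.4 and 25 CPM in WT water and 28.6, 16.9, 43.7 and 25.7 CPM in KO water. It had 20.5, 14.7 and 15.7 CPM in WT after DSS. In KO after DSS it had 7.64, 8.67 and 8.37 CPM, and these were the 3 lowest values of all 14 libraries. The group means were 28.8 ± 11.2 CPM in KO water (28.8 ± 13.7 without replicate 1), 21.6 ± 4.29 in WT water, 17.0 ± 3.14 in WT DSS and 8.23 ± 0.530 in KO DSS (SD). No neighbours in this order differed past the threshold (edgeR adjusted p of 0.26, 0.44 and 0.47).

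**Figure D1:**
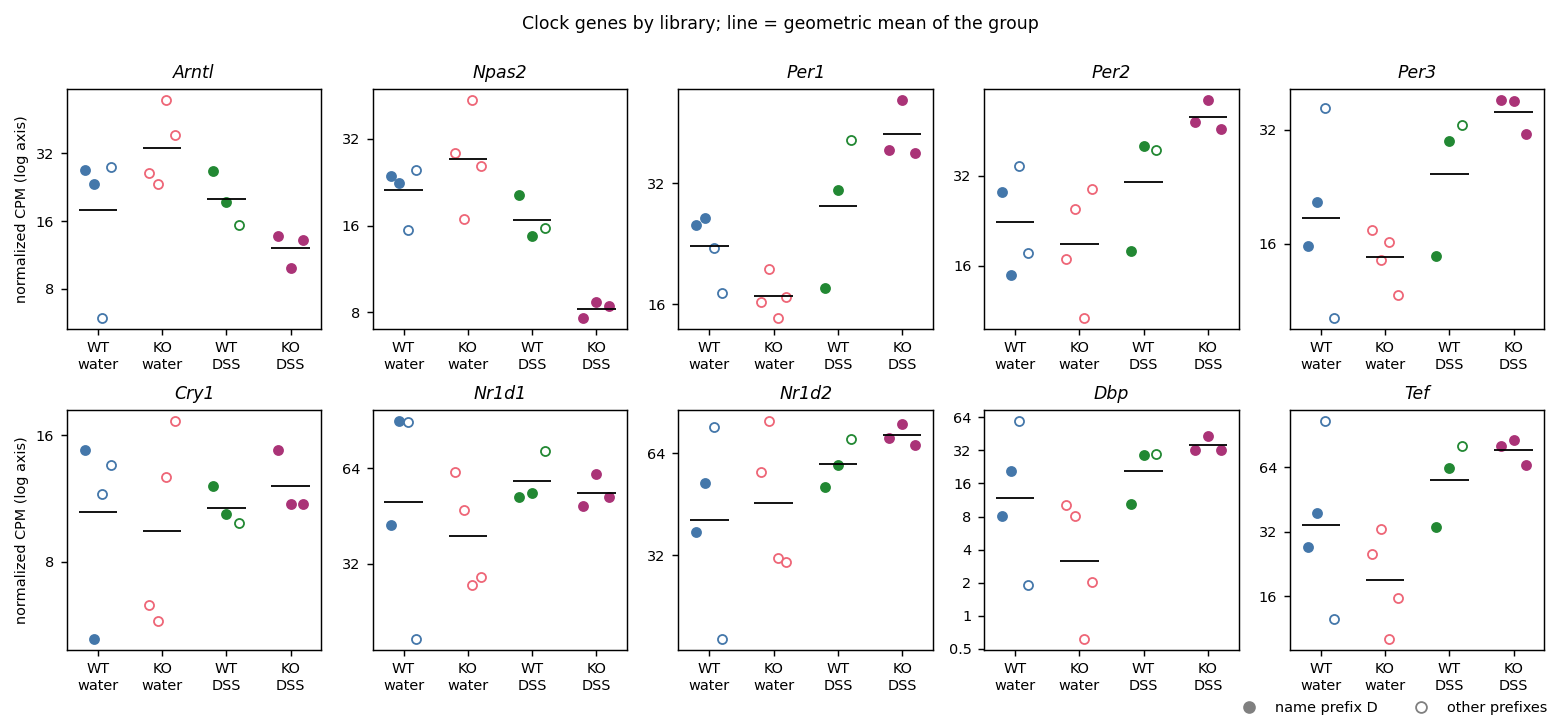
Each panel plots 1 clock gene, with normalized CPM on a log axis for every library of the 4 groups. Points are libraries, filled where the name prefix is D, and lines are geometric means. Npas2 in KO DSS (7.64 to 8.67 CPM) sits below all other libraries, and Dbp in WT water runs from 1.92 to 59.0 CPM.

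The period genes form the repressing arm together with the cryptochromes. Per1 (chromosome 11, 68908719 to 68923462, + strand) had 25.2, 26.3, 22.1 and 17.1 CPM in WT water and 16.2, 19.6, 14.8 and 16.7 CPM in KO water. After DSS it had 17.6, 30.8 and 41.0 CPM in WT and 38.8, 51.6 and 38.0 CPM in KO. All KO DSS libraries were above all libraries on water, while WT DSS replicate 3 reached the range of KO DSS.

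Per2 (chromosome 1, 93312561 to 93355907, - strand) was read at 28.2, 14.9, 34.4 and 17.6 CPM in WT water and at 16.9, 24.7, 10.7 and 28.8 CPM in KO water. The WT DSS libraries gave 17.9, 40.3 and 38.9 CPM and the KO DSS libraries 48.5, 57.3 and 45.8 CPM, the 3 highest of the 14. Per3 (chromosome 4, 150377761 to 150418774, - strand) had 10.2 to 36.6 CPM in WT water, 11.7 to 17.4 CPM in KO water, 14.9 to 32.9 CPM in WT DSS and 31.3 to 38.4 CPM in KO DSS. For both genes WT DSS replicate 1 stood below the other DSS libraries.

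In other organs Cry1 (chromosome 10, 84594447 to 84647799, - strand) follows the Per genes with a delay. With every harvest around midday, such an order in time could not be read here. The groups of Cry1 all overlapped, at 5.23 to 14.8 CPM in WT water, 5.78 to 17.3 in KO water, 9.89 to 12.1 in WT DSS and 11 to 14.8 in KO DSS. Nr1d1 (chromosome 11, 98629246 to 98636647, - strand), the repressor of Arntl, had 42.3, 90.2, 89.8 and 18.5 CPM in WT water and 62.3, 47.1, 27.3 and 29.0 CPM in KO water. It had 51.9, 53.3 and 72.4 CPM in WT DSS and 48.6, 61.3 and 51.8 CPM in KO DSS, within the range of the untreated libraries. Nr1d2 (chromosome 14, 19036568 to 19071641, - strand) was at 18.1 to 76.5 CPM in WT water, 30.5 to 79.5 in KO water, 50.7 to 70.6 in WT DSS and 67.5 to 78.2 in KO DSS. Exons of Nr1d1 and Thra overlap on opposite strands over 263 bases, and the strand setting of the counting is not stated, so reads there cannot be assigned with certainty.

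The output factors varied most. Dbp (chromosome 7, 52960458 to 52965525, + strand) had 8.07, 20.9, 59.0 and 1.92 CPM in WT water and 10.2, 8.05, 0.617 and 2.03 CPM in KO water. It had 10.4, 28.8 and 29.9 CPM in WT DSS and 31.9, 42.8 and 32.5 CPM in KO DSS. The highest and lowest of all 14 libraries were thus both on water, WT replicate 3 and KO replicate 3, the latter with 15 reads. Tef (chromosome 15, 81632851 to 81657291, + strand) followed the same libraries, at 27.2, 38.9, 105 and 12.5 CPM in WT water and 25.3, 32.9, 10.1 and 15.7 CPM in KO water. Its DSS values were 33.6, 63.6 and 80.3 CPM in WT and 80.1, 85.4 and 65.6 CPM in KO. Dbp overlaps Sphk2 on the opposite strand over 491 exonic bases, and Sphk2 gave a log2 fold change of 0.02 ± 0.16 (SE) between DSS and water in KO. Reads in the shared bases were not separated.

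Levels of different genes can be set side by side only per length of transcript. Per kilobase of exon, Nr1d1 was the highest of the 10 in WT water (19.3 ± 11.4 CPM per kb, SD, n = 4) and Per3 the lowest (2.16 ± 1.18 CPM per kb). In KO DSS the highest were Nr1d1 (17.2 ± 2.11 CPM per kb, SD, n = 3), Nr1d2 (14.4 ± 1.09) and Dbp (12.1 ± 2.09), and Npas2 was the lowest (1.72 ± 0.111).

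The first comparison asked how the clock genes differed between DSS and water in the KO epithelium. Npas2 fell 3.50-fold, with a log2 fold change of -1.81 ± 0.27 (SE) and an adjusted p of 0.023 (edgeR quasi-likelihood test, Benjamini-Hochberg over 15127 genes, 3 against 4 libraries). Per1 rose 2.54-fold, with a log2 fold change of 1.35 ± 0.23 (SE) and an adjusted p of 0.048. These were 2 of the 10 genes called in the whole transcriptome (0.0661% of those tested), at places 4 and 9 by p. The other 8 clock genes did not pass. Tef, Dbp, Per2, Per3 and Arntl held places 66 to 167, with adjusted p of 0.33 to 0.43. Their log2 fold changes were 1.88 ± 0.52 for Tef, 2.78 ± 0.85 for Dbp, 1.32 ± 0.34 for Per2, 1.27 ± 0.33 for Per3 and -1.55 ± 0.42 for Arntl (SE). In 7 of the 10 genes no KO DSS library overlapped a KO water library, 5 higher (Per1, Per2, Per3, Dbp and Tef) and 2 lower (Arntl and Npas2), where 8.88% of all tested genes did not overlap. Cry1, Nr1d1 and Nr1d2 overlapped, with log2 fold changes of 0.22 ± 0.37, 0.38 ± 0.40 and 0.55 ± 0.37. The median log2 fold change of the 10 genes was 0.91, with 8 above 0, against -0.02 over all genes tested.

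Both calls stood close to the threshold. With the library labelled KO water replicate 1 left out, the adjusted p was 0.051 for Npas2 and 0.18 for Per1, at log2 fold changes of -1.81 and 1.33. Without it Arntl was at -1.68, Per2 at 1.24, Per3 at 1.35, Dbp at 3.36 and Tef at 1.98, all uncalled. Npas2 also lost the call without KO DSS replicate 1, 2 or 3 (adjusted p of 0.18, 0.11 and 0.17), and Per1 lost it without any 1 of the 7 libraries (0.07 to 0.40). DESeq2 on the same 14 libraries called 5 of the 10 clock genes, adding Arntl (adjusted p = 0.022), Per2 (0.035) and Per3 (0.04), among 70 genes in all, while edgeR on the 7 KO libraries alone called none of them. With the name prefix as a block Npas2 was at -1.99 (adjusted p = 0.43) and Per1 at 1.44 (0.94), and with the replicate number as a block at -1.76 (0.064) and 1.27 (0.10). No library pair within a prefix exists for this comparison. Between these 2 groups the fibroblast markers summed to 2.98 to 24.8 CPM on water and 7.21 to 13.0 CPM after DSS, the immune markers to 448 to 1670 and 1230 to 1350 CPM, and the surface colonocyte markers to 1560 to 2320 and 1610 to 2280 CPM, with all 3 sums overlapping. Car1 made up most of the last sum. Of its 4 genes, Aqp8 (155 to 244 CPM on water, 71.5 to 116 after DSS) and Car4 (267 to 539 and 164 to 244 CPM) were lower after DSS without overlap and uncalled (edgeR adjusted p of 0.12 and 0.42), and their part in the result was not tested. The mitochondrial share was 4.83% to 21.4% on water and 4.05% to 5.20% after DSS. In bulk tissue, fewer cells of a type and less RNA per cell cannot be told apart.

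**Figure D2:**
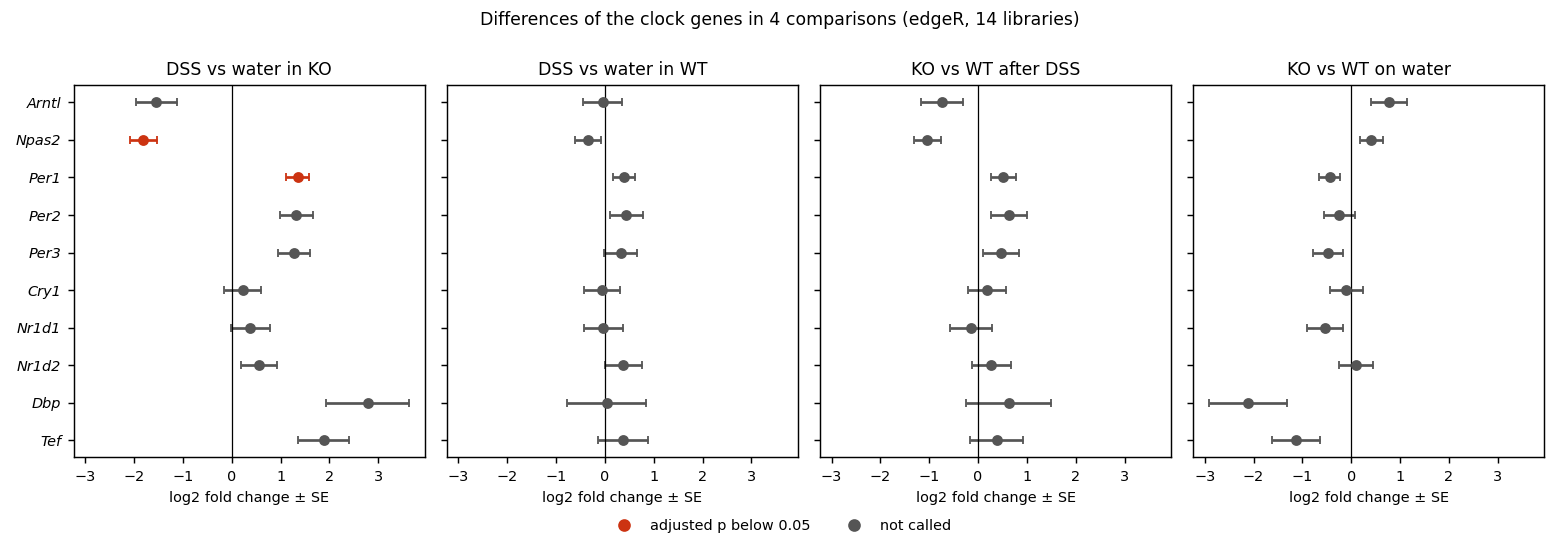
Points are log2 fold changes with SE bars for the 10 clock genes in 4 comparisons, from an edgeR model of all 14 libraries, with red for an adjusted p below 0.05. Only Npas2 (-1.81) and Per1 (1.35) in KO passed, and the WT values on DSS lie between -0.35 and 0.44.

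The same comparison in WT gave no call. None of the 10 clock genes passed, none had an unadjusted p below 0.05 and no gene of the transcriptome was called (0% of those tested) by edgeR, although 3174 genes had an unadjusted p below 0.05. DESeq2 on the 14 libraries called 851 genes here, none of them a clock gene. All 10 genes overlapped between WT DSS and WT water, where 24.4% of all tested genes did not overlap. The log2 fold changes were -0.04 ± 0.40 for Arntl, -0.35 ± 0.26 for Npas2, 0.39 ± 0.23 for Per1, 0.44 ± 0.34 for Per2, 0.04 ± 0.81 for Dbp and 0.37 ± 0.52 for Tef (SE). Among the libraries with prefix D alone, 2 in each group, Per1 was at -0.09 and Dbp at 0.44, both uncalled.

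Whether DSS acted differently in the 2 genotypes was tested as the difference of these responses. None of the 10 clock genes passed after adjustment, where 1 gene did in all (0.00661% of those tested). The differences, KO minus WT, were -1.46 ± 0.37 for Npas2, 0.96 ± 0.33 for Per1, -1.51 ± 0.57 for Arntl and 2.74 ± 1.18 for Dbp on the log2 scale (SE), each with an adjusted p of 0.64. Their unadjusted p were 0.0011, 0.011, 0.017 and 0.034 (edgeR), and these 4 were the clock genes below 0.05, among 1135 genes in all. Without the library labelled KO water replicate 1 they were -1.46, 0.94, -1.63 and 3.32, each with an adjusted p of 0.57. DESeq2 called none of the 10 either. A response past the threshold in KO and not in WT was therefore not shown to differ between the genotypes.

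After DSS, KO was set against WT to ask how the loss of Smad4 shows in the injured epithelium. None of the 10 clock genes was called, where 2 genes were in all (0.0132% of those tested). Npas2 was 2.06-fold lower in KO, with a log2 fold change of -1.04 ± 0.28 (SE), an unadjusted p of 0.0019 and an adjusted p of 0.47 (edgeR, 3 against 3 libraries). It was the only clock gene with an unadjusted p below 0.05, at place 60 of 15127, among 670 such genes. Arntl and Npas2 were lower and Per2 and Dbp higher in KO with no overlap, 4 of the 10 genes, where 21.7% of all tested genes did not overlap. With WT and KO DSS libraries alone, Npas2 was called by edgeR (adjusted p = 0.027), among 114 of 14241 tested genes. DESeq2 on the same libraries called Npas2 (adjusted p = 8.7e-06) and Arntl (0.027), among 492 of 14241. DESeq2 on all 14 libraries called 51 genes, none of them among the 10. Within the prefix D, 3 KO and 2 WT libraries, Npas2 was at -1.09 (adjusted p = 0.061) and Arntl at -0.91 (0.11). Per1, Per2, Per3, Dbp and Tef were at 0.67 to 0.87 there, Cry1 at 0.13 and Nr1d1 at 0.04, all uncalled. In this fit, chosen after seeing the data, 8 of the 10 clock genes had an unadjusted p below 0.05 (edgeR), among 1766 of 14003 genes. The fibroblast markers, 0.276 to 1.89 CPM in WT DSS and 7.21 to 13.0 CPM in KO DSS, did not overlap between these groups. Among them Lum was at 0 in every WT DSS library and at most at 0.0507 CPM in KO DSS. The immune markers, nearly all Cd74, summed to 1560 to 3200 CPM in WT DSS and 1230 to 1350 CPM in KO DSS, without overlap. The endothelial markers did not overlap either, at 0.594 to 0.674 and 0.262 to 0.394 CPM. Surface colonocyte sums overlapped, but Aqp8 and Car4 were lower in KO without overlap and uncalled. The part of these markers in the result was not tested.

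On water, none of the 10 clock genes differed between KO and WT past the threshold, in a comparison with 1276 genes called (8.44% of those tested). All 10 overlapped, where 10.4% of all tested genes did not. Dbp was at -2.11 ± 0.80 (SE, adjusted p = 0.097) and Tef at -1.13 ± 0.49 (0.14) on the log2 scale (edgeR), the 2 clock genes with an unadjusted p below 0.05. Both values leaned on WT water replicate 3, without which they were -1.01 (adjusted p = 0.39) and -0.33 (0.63). Without the library labelled KO water replicate 1 they were -2.69 (0.075) and -1.23 (0.16). Within the prefixes other than D, Dbp was at -2.55 (0.22) and Arntl at 1.09 (0.29). DESeq2 on the 14 libraries called none of the 10 genes. Sphk2, whose exons overlap those of Dbp, was called lower in KO (-0.61 ± 0.15, SE, adjusted p = 0.032). The fibroblast markers summed to 0.896 to 4.06 CPM in WT and 2.98 to 24.8 CPM in KO, and 2 of the 6, Col1a2 and Dcn, were called higher in KO. The 4 surface colonocyte markers summed to 2400 to 3610 CPM in WT and 1560 to 2320 CPM in KO, without overlap. Of them Car1 alone was called, lower in KO (-0.98 ± 0.25, SE, edgeR adjusted p = 0.035), while Slc26a3, Aqp8 and Car4 overlapped. The part of the fibroblast and colonocyte markers in these values was not tested.

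The state of the clock in each library was read from sets of genes with opposite peak times. The balance was taken as the mean log2 CPM of the 7 genes Nr1d1, Nr1d2, Dbp, Tef, Per1, Per2 and Per3, minus that of Arntl, Npas2 and Cry1. Cry1, a repressor by role, was placed with the activators because its transcript peaks at night in other organs. Since gene lengths differ, its 0 has no meaning of its own and only differences between libraries can be read. It was 2.07, 2.54 and 2.09 in KO DSS replicates 1 to 3, and 0.34, 1.53 and 1.86 in WT DSS. In KO water it was 0.51, 0.95, -1.58 and -0.80, all below the KO DSS libraries. In WT water it was 0.15, 1.17, 2.38 and -0.90, from the second lowest to the second highest of the 14 libraries. Without Cry1, a choice made after seeing the data, the balance was 2.12 to 2.62 in KO DSS, 0.02 to 1.65 in WT DSS, -2.24 to 0.36 in KO water and -1.22 to 2.47 in WT water.

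Ratios of single genes were read beside the balance. The ratio of Dbp to Arntl CPM ran from 0.0112 in KO water replicate 3 to 9.92 in WT water replicate 3, and was 2.32, 4.33 and 2.47 in KO DSS. The ratio of Per1 to Npas2 CPM was 5.08, 5.95 and 4.53 in KO DSS replicates 1 to 3, above the 0.338 to 2.61 of the other 11 libraries. On the log2 scale the latter averaged 2.37 ± 0.20 (SD) in KO DSS, 0.74 ± 0.85 in WT DSS, 0.07 ± 0.45 in WT water and -0.70 ± 0.73 in KO water. Per1 and Npas2 were the clock genes called between KO DSS and KO water. Their ratio therefore restates that difference and adds no support to it. WT water replicate 3, with Dbp and Tef above every KO DSS library, had a Per1 to Npas2 ratio of 1.43, below all of them. The 2 libraries with the prefix MP, WT water 4 and KO water 4, stood next to each other in the balance (-0.90 and -0.80). The 2 libraries with the largest mitochondrial share, WT water 3 and 4 (30.6% and 32.8%), stood near its opposite ends. KO water 4 had the next largest share (21.4%), so for the 2 MP libraries prefix and share cannot be told apart.

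**Figure D3:**
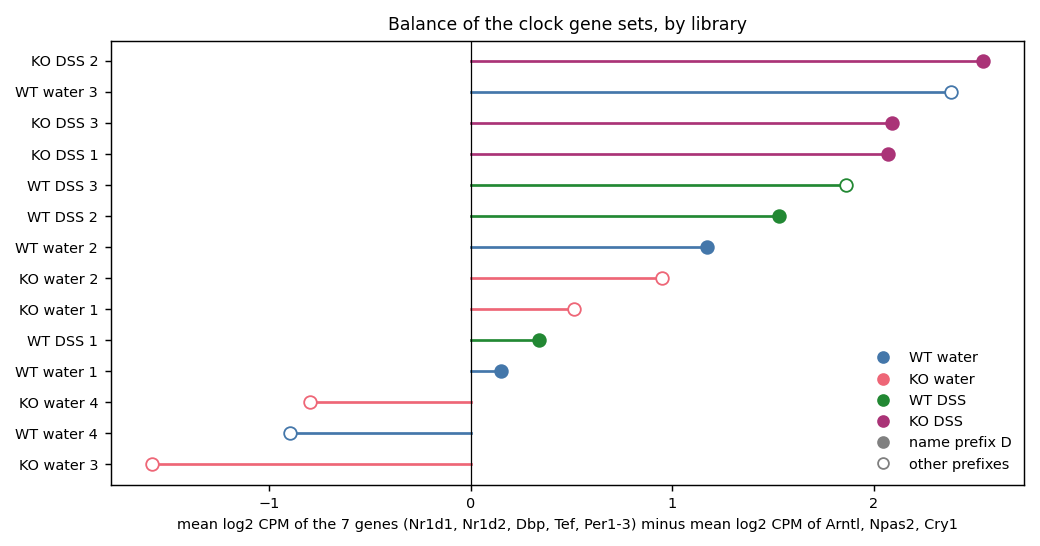
The horizontal axis is the mean log2 CPM of 7 genes minus that of Arntl, Npas2 and Cry1, with 1 row per library, sorted, coloured by group and filled for prefix D. The 3 KO DSS libraries lie at 2.07 to 2.54 and the 4 WT water libraries at -0.90 to 2.38.

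Within groups most of the 10 clock genes varied more than most of the transcriptome. The SD of log2(CPM + 1) around the group means was 1.30 for Dbp, above 99.8% of all tested genes, 0.84 for Tef (99%), 0.67 for Nr1d1 (97.6%), 0.65 for Arntl (97.3%) and 0.60 for Nr1d2 (96.3%). It was 0.36 for Npas2 (73.4%) and 0.34 for Per1 (68.1%), against a median of 0.28. Per2, Per3 and Cry1 lay at 0.50 to 0.53. The 2 genes called after DSS in KO were thus the ones with the smallest spread, and Dbp, with the largest fold, was not called. In KO DSS the highest Dbp value was 1.34 times the lowest, in KO water 16.5 times and in WT water 30.6 times.

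These swings ran through the genes in opposite directions. Over the 14 libraries, Arntl and Dbp had a Pearson r of -0.91 and a Spearman rho of -0.95 on log2(CPM + 1), and Arntl and Tef the same r and rho. Without WT water 3 and KO water 3, the libraries farthest from the median of Arntl, r was -0.88 and -0.90. With the group means taken out, r was -0.86 and -0.91, so that the opposition was also present inside the groups. Dbp and Tef ran together (r = 0.98, and 0.97 inside the groups), as did Dbp with Nr1d1 (0.84 and 0.92) and with Nr1d2 (0.84 and 0.94). Arntl and Npas2 had an r of 0.79 (0.76 inside the groups). Cry1 had an r of 0.06 to Arntl (0.31 inside the groups) and of -0.24 to Dbp (-0.59 inside the groups). Each point is 1 library and both values come from the same RNA and the same scaling, and these values are descriptions without a test.

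**Figure D4:**
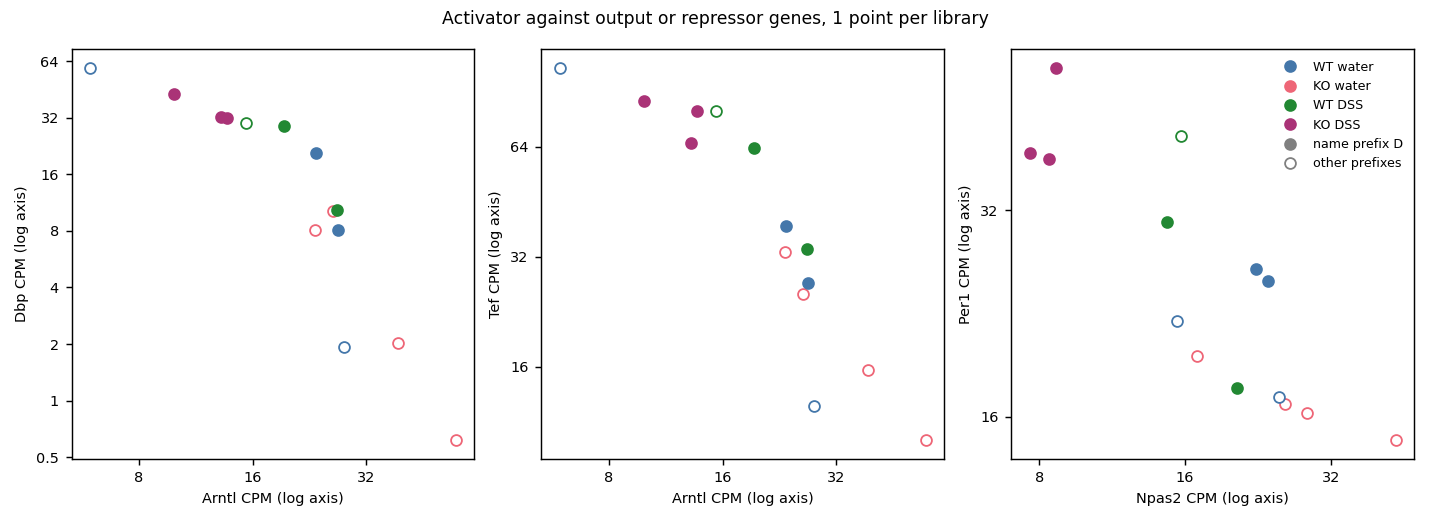
Each point is 1 library, with log axes of CPM for Arntl against Dbp, Arntl against Tef and Npas2 against Per1, coloured by group and filled for prefix D. Dbp spans 0.617 to 59.0 CPM while Arntl spans 55.3 to 5.94 CPM in the opposite direction. In the right panel, which shows the clock genes called between KO DSS and KO water, the 3 KO DSS libraries lie apart at the top left.

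Among 11577 genes with a mean of at least 50 normalized counts, Tef and Dbp were the 2 genes most opposed to Arntl, and Per3 was the fifth. Apart from the 10 genes, those most like Arntl over the 14 libraries were BC016579 (r = 0.91), Nfil3 (0.91), Abcg2 (0.86), Fbxo9 (0.83) and Pramef8 (0.82). Those most opposed to Arntl were Ciart (-0.89), Rac3 (-0.82), Aatf (-0.81), Cry2 (-0.80) and Lefty1 (-0.79). The genes most like Dbp were Lefty1 (0.92), Ciart (0.87), Emd (0.85), Cry2 (0.85) and 2310044G17Rik (0.82), and those most opposed to it were Nfil3 (-0.91), Zfand5 (-0.86), Kcnh6 (-0.84), E2f2 (-0.83) and Fam108b (-0.83). Of these, Nfil3, Ciart and Cry2 are clock genes themselves. NFIL3 binds D-boxes as a repressor, CIART (also called CHRONO) represses the ARNTL dimer, and CRY2 is the second cryptochrome.

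The rest of the clock was read from gene lists by role. Of 6 activators and ROR partners, which include Arntl and Npas2, Npas2 alone was called after DSS in KO, and none of the 6 had a log2 fold change above 0 (median -0.93, against -0.02 over all genes). Of 9 tested repressors, which include the Per genes, Cry1, Nr1d1 and Nr1d2, Per1 alone was called and all 9 were above 0 (median 0.84). Ciart had 1.54, 2.03, 1.03 and 1.12 CPM in KO water and 7.79, 7.43 and 6.90 CPM in KO DSS, with no overlap and a log2 fold change of 2.37 ± 0.69 (SE, edgeR adjusted p = 0.40). Cry2 had 10.4, 10, 9.83 and 6.42 CPM in KO water and 15.7, 19.0 and 14.7 CPM in KO DSS (log2 fold change 0.84 ± 0.22, adjusted p = 0.33). Nfil3, on the opposite side, had 8.45, 9.24, 12.5 and 14.3 CPM in KO water and 5.81, 6.30 and 5.79 CPM in KO DSS (-0.90 ± 0.37, adjusted p = 0.54). Ciart, Cry2 and Nfil3 therefore separated these libraries without passing the test. Clock itself did not, at 124, 135, 131 and 70.9 CPM in KO water and 116, 84.9 and 91.9 CPM in KO DSS.

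Among 5 genes that are rhythmic in most organs, none was called after DSS in KO. On water, 2 of the 23 tested genes of the clock lists passed between KO and WT (8.70%), close to the 8.44% of all tested genes, so the count says nothing about the lists. Clock had 69.9, 76.0, 74.2 and 49.6 CPM in WT against the KO water values above, with KO water replicate 4 inside the WT range, and a log2 fold change of 0.77 ± 0.19 (SE, edgeR adjusted p = 0.032). Usp2, a deubiquitinase with a rhythmic transcript, fell 1.79-fold (-0.84 ± 0.19, adjusted p = 0.027), from 23.0, 22.4, 26.2 and 19.2 CPM in WT to 16.1, 9.48, 11.3 and 13.8 CPM in KO. Without the library labelled KO water replicate 1 the adjusted p were 0.046 for Clock and 0.016 for Usp2. Both calls were lost without WT water replicate 4 (0.094 and 0.068), KO water replicate 2 (0.09 and 0.081) or KO water replicate 3 (0.10 and 0.087), and with edgeR on the 2 groups alone (0.15 for both). That of Usp2 was also lost without WT water replicate 3 (0.051). In 3 edgeR fits chosen after seeing the data, neither gene was called. The adjusted p for Clock and Usp2 were 0.13 and 0.075 with the mitochondrial share as a covariate. They were 0.17 for both within the prefixes other than D. In the 2 groups without the library labelled KO water replicate 1 they were 0.2 and 0.13. Hlf, the remaining PAR bZIP factor, and Bhlhe41 were too low to be tested.

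Per1 and Per2 can also be induced directly, by glucocorticoids or by signals that induce immediate early genes. These lists were therefore read beside them. Of 8 glucocorticoid response genes, Per1 among them, Per1 alone was called after DSS in KO, 3 were above 0 and the median log2 fold change was -0.23. Fkbp5 (0.11 ± 0.20), Tsc22d3 (-0.09 ± 0.18) and Klf9 (0.15 ± 0.32, SE) overlapped between KO DSS and KO water, while Errfi1 was lower after DSS without overlap (-0.37 ± 0.16, SE, edgeR adjusted p = 0.56). Of 7 immediate early genes none was called there, and Fos (-0.13 ± 0.34) and Egr1 (-0.16 ± 0.50, SE) overlapped as well. Whether such signals had a part in the Per1 and Per2 values was not tested.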

How the data were processed

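Polyadenylated RNA of 14 libraries was sequenced as paired-end reads. Raw read counts per gene were deposited by the authors, made with featureCounts from HISAT2 alignments to mm9. The strand setting is not given in the sources used here. Columns were assigned to samples through the labels. A gene was kept if 3 or more libraries had 10 or more counts for it (15127 of 37680 genes). The counts were scaled by TMM and tested with the quasi-likelihood F test of edgeR 4.0.16 in R 4.3.3, in 1 model of 4 groups without covariates, two-sided, with Benjamini-Hochberg adjustment over all tested genes and a threshold of 0.05. Standard errors are the absolute log2 fold change divided by the square root of F. DESeq2 1.42.0, models of 2 groups, other normalizations and filters, blocks and each library left out were alternatives. The edgeR steps were tested on simulated data.

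Exon lengths and gene positions come from GENCODE M1 (mm9), promoters from RefSeq (GRCm38.p6). The 2 builds were not mixed. Likeness is the Pearson r of log2(CPM + 1) over 14 libraries among genes with a mean of at least 50 normalized counts, naming the 5 highest and 5 lowest genes that are not among the 10. Also named were the 10 genes, genes of the clock lists and Smad4. The 10 genes and all lists were chosen with earlier results of these data known. Total counts of 12882827 to 26087231 set the precision. A further clock list is not reported here.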

Additional observations from a re-analysis of the deposited data

Results flagged for a closer look

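In 60 groups of 4 libraries (the 10 clock genes, the other tested genes of the clock lists and Smad4, in WT water and in KO water), 9 had 1 library far from the other 3 by Dixon's criterion, which chance meets in about 1 of 20 groups. None of the 9 was a group of the 10 clock genes. Smad4 was far above the rest in the library labelled KO water replicate 1 (158 CPM). Ciart was high in WT water replicate 3 (9.36 CPM), the library with the highest Dbp. Bhlhe40 was low in WT water replicate 4 (53.4 CPM), and Clock (70.9 CPM) and Cry2 (6.42 CPM) were low in KO water replicate 4, the 2 libraries with the prefix MP. In KO water replicate 2, Rora was high (3.28 CPM) and Btrc (12.3 CPM) and Tspan4 (0.0596 CPM) were low. Rorb was high in WT water replicate 2 (0.621 CPM). The cause of these values was not tested.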

How the results depend on the processing

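Of 950 log2 fold changes of the 10 genes under alternatives, 882 kept their direction and their side of the threshold. For DSS against water in KO, the clock genes called numbered 5 and 6 with DESeq2 (all 14 libraries, and the 2 groups alone, each with 70 genes in all), 0 with edgeR on the 2 groups (1 gene), 1 with RLE normalization or a filter of 50 counts, 0 with the replicate block (6 genes) or the name prefix block (2 genes), 0 to 1 with 1 library left out (3 to 9 genes), and, chosen after seeing the data, 1 with the mitochondrial share as a covariate and 0 in the 2 groups without the library labelled KO water replicate 1 (1 gene). For KO against WT after DSS they numbered 1 (edgeR, 2 groups, 114 genes) and 2 (DESeq2, 2 groups, 492 genes), and the genes called in all 51 (DESeq2), 7 (no filter), 45 (within prefix D) and 0 to 4 (1 library left out). On water, 1 clock gene, Dbp, was called with no filter on low counts, and the genes called in all numbered 2659 and 796 (DESeq2), 1 (edgeR, 2 groups), 2977 (replicate block), 13 (2 groups without the library labelled KO water replicate 1), 1 (within the other prefixes), 8 (mitochondrial share) and 4 to 4104 (1 library left out, lowest without WT water 4 and highest without KO water 4). For DSS in WT the genes called numbered 851 and 1789 (DESeq2), 138 (no filter), 3 (within prefix D) and 0 to 1 (1 library left out), and for the difference of the responses 8 (DESeq2), 2 (no filter) and 1 to 6 (1 library left out).

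Signs changed only in 35 small, uncalled values of at most 0.34. For KO against WT these were Nr1d1 after DSS (0.04 within prefix D, -0.24 to 0.03 with 1 library left out), Cry1 on water (0.08 in the 2 groups without KO water replicate 1, 0.12 with the mitochondrial share, -0.43 to 0.10) and Nr1d2 on water (-0.00 with the name prefix block, -0.01 with the mitochondrial share, -0.23 to 0.46). For DSS in WT they were Arntl (0.05 with the replicate block, -0.34 to 0.13), Per1 (-0.09 within prefix D), Cry1 (0.20 with the replicate block, 0.17 within prefix D, 0.33 with the mitochondrial share, -0.29 to 0.11), Nr1d1 (-0.33 to 0.25) and Dbp (-0.01 with upper quartile normalization, -0.12 with the replicate block, -0.34 to 1.14). In the difference of the responses it was Nr1d2 (-0.19 to 0.49).

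Deviations from the group means of same-numbered libraries correlated at -0.12 to 0.09 in 17 of 19 pairs over all pairs of groups. The value was 0.21 for replicate 3 of KO water and WT DSS and 0.45 for replicate 4 of WT and KO water. The latter pair has the prefix MP and mitochondrial shares of 32.8% and 21.4%. The labels name no pairs, and with so few libraries per group these correlations cannot exclude a pairing. With the replicate block, the calls of Npas2 (-1.76, adjusted p = 0.064) and Per1 (1.27, 0.10) were lost. Of 144 likeness values, 3 moved by more than their jackknife error, all with the group means taken out. The causes were not tested.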
